A study of Mus musculus with 4 samples.

Results

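The polypyrimidine tract binding protein (PTB) family has 3 genes in the mouse, *Ptbp1*, *Ptbp2* and *Ptbp3*, and RNAseq of *Ptbp2* knockout brain shows how the splicing and the level of each stood when one of them was deleted. The measured unit was the exon trio, a middle exon with the exon on either side, whose 3 junctions either include or skip the middle exon. A trio was assigned to a gene when its chromosome, strand, middle exon length and both intron lengths matched a transcript of GENCODE release M21. By this rule 51 of 228333 trios belonged to the family, 19 to *Ptbp1*, 16 to *Ptbp2* and 16 to *Ptbp3*. They cover 40 distinct middle exons, 14 of *Ptbp1*, 12 of *Ptbp2* and 14 of *Ptbp3*, and where several trios share an exon, the one with the largest number of junction reads is given unless another is named.

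Mice of a Mixed C56Bl/6:129S2 background carried a *Ptbp2* allele with exon 4 between loxP sites, and Cre recombinase was driven by either the nestin or the Emx1 promoter. PolyA+ RNA came from whole brain at embryonic day 18 (E18), with 2 nestin-Cre knockouts (NesKO) and 2 WT littermates, and from the cortex at postnatal day 1 (P1), with 1 Emx-Cre knockout (EmxKO) and 1 littermate labelled WT. Each of the 4 groups has 1 library, so no value below has a replicate, and every test compares the reads of 2 libraries and not 2 genotypes. Nestin-Cre acts in progenitors throughout the nervous system, while Emx1-Cre acts in progenitors of the dorsal forebrain, so interneurons and blood-derived cells of the cortex keep an intact allele. Stage, tissue, Cre line and library type changed together between the 2 pairs, since both E18 libraries were not strand specific and both P1 libraries were, and these cannot be told apart.

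The 4 libraries held between 48367448 and 83394001 reads on distinct junctions, and all levels below are reads per 1000000 of these (RPM). One library went against its label. Of the junction reads at *Ptbp2* exon 4 in the P1 library labelled WT, 31.5% skipped it (95% Wilson interval, 29.5 to 33.7%), whereas in the E18 WT library 0.225% did (0.0398 to 1.26%). Every difference at P1 is therefore a difference between the EmxKO library and this library labelled WT.

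PTB proteins bind pyrimidine-rich sequences in introns and mostly repress the exon nearby. PTBP1 is found in neural progenitors, glia and most non-neuronal cells, PTBP2 is induced as neurons are born, and PTBP3 is best known from blood-forming cells. The genes regulate themselves and each other: in each there is an exon of 34 nt whose omission shifts the reading frame, and PTBP1 promotes omission of this exon in *Ptbp2* and in its own transcript, which leads to nonsense-mediated decay. A further exon of *Ptbp1*, of 78 nt, keeps the frame and lengthens the linker between RNA binding domains, and its omission makes PTBP1 a weaker repressor of some targets.

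The 34 nt exons are shown first because they are the cross-regulated element that the genes share. Capitals mark bases that are the same in the 3 genes, and the sequences are from the GENCODE transcripts, 5′ to 3′.

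Ptbp1 exon 10: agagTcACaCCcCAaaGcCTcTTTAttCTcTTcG

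Ptbp2 exon 10: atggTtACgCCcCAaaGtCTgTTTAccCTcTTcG

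Ptbp3 exon 11: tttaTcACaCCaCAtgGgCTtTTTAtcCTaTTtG

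Of the 34 bases, 19 were shared by all 3 genes. *Ptbp1* and *Ptbp2* shared 26 bases (76.5%), *Ptbp1* and *Ptbp3* shared 22 (64.7%), and *Ptbp2* and *Ptbp3* shared 21 (61.8%). Exon numbers are those of a 14-exon transcript of *Ptbp1*, a 14-exon transcript of *Ptbp2* and a 15-exon transcript of *Ptbp3*. In the usual numbering of *Ptbp1* the 34 nt exon is exon 11 and the 78 nt exon is exon 9, whereas they are exons 10 and 8 of the transcript used here. Read from the annotated start codon without the 34 nt exon, each of the 3 transcripts met a TGA stop at base 25 of the next exon, 361 bases before the last junction. Without the 78 nt exon *Ptbp1* kept its frame and had 529 codons in place of 555.

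The 78 nt exon has a counterpart of the same length in *Ptbp3*, with 46 of 78 bases the same (59.0%), and none in the *Ptbp2* transcript. It is shown because it had the largest difference of any *Ptbp1* exon between the P1 libraries.

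Ptbp1 exon 8: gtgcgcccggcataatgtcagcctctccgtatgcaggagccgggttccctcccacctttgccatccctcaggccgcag

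Ptbp3 exon 9: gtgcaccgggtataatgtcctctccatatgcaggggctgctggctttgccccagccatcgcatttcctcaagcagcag

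The last sequence is the join that deletion of *Ptbp2* exon 4 creates, the final 30 bases of exon 3 followed by the first 60 of exon 5. Capitals mark the stop codon that the shifted frame meets.

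Ptbp2 exon 3 to exon 5: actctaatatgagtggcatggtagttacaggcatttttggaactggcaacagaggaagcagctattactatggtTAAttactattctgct

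This frame has 53 codons before the TAA, and 1131 bases lie between that stop and the last junction.

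Most exons of the family stood near full inclusion in their trios. Percent spliced in (PSI) is the deposited inclusion ratio after correction, in percent, and an exon was called different at 10 points with at least 20 reads on its 3 junctions in both libraries. In *Ptbp1*, 12 of the 14 exons had this depth in all 4 libraries and a PSI of at least 95 in each, the lowest being 96.3. The same held for 11 of 12 exons of *Ptbp2*, with a lowest PSI of 96.1, and for all 11 exons of *Ptbp3* that had the depth, with a lowest PSI of 97.7. The other 3 exons of *Ptbp3* were below 20 reads in at least 1 library.

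Between NesKO and WT at E18, 2 of 37 family exons were called, 1 higher and 1 lower, against 1.81% of all exons tested. Between EmxKO and the library labelled WT at P1, 2 of 39 were called, both lower, against 1.17% of all exons. In each comparison 1 of the 2 calls was the deleted exon of *Ptbp2*, whose loss the design fixed in advance. Among exons that the trio database labels as cassettes, 0 of 4 family exons were called at E18 and 1 of 5 at P1, against 11% and 9.51% of all cassette-labelled exons. The median PSI difference of the family was 0 at both stages, as it was over all exons.

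A second rule used junction reads alone, a two-sided Fisher's exact test of inclusion against skipping with Benjamini-Hochberg adjustment over all exons of the comparison. At an adjusted p under 0.05 it called 2 of 37 family exons at E18, exons 4 and 5 of *Ptbp2*, where 0.202% of all exons were called. At P1 it called 4 of 39, exon 8 of *Ptbp1* and exons 4, 5 and 10 of *Ptbp2*, where 0.424% of all exons were called. In both comparisons exon 4 is the deleted exon, and the skipping reads of exon 5 start at it.

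Exon 4 of *Ptbp2* (173 nt, coding, mm9 chr3:119455862-119456034, minus strand) is the deleted exon and checks the labels. In the NesKO library 257 reads joined exon 3 to exon 5, and both junctions of exon 4 and the exon itself had 0 reads in its trio, which allows a junction PSI of up to 1.17%. The E18 WT library had 242 and 644 reads on the upstream and downstream junction of exon 4 and 1 skipping read. In the EmxKO library 134 and 152 reads included the exon and 680 skipped it. In the P1 library labelled WT 1371 and 1250 reads included the exon and 604 skipped it. PSI was thus 0.1, 99.9, 15.9 and 67.5 in the order NesKO, E18 WT, EmxKO and labelled WT. The differences were -99.8 points at E18 (Fisher's exact test, adjusted p = 2.28e-192) and -51.6 points at P1 (adjusted p = 5.52e-136).

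Split into isoforms, the P1 libraries differed more in the inclusion reads than in the skipping reads. Skipping reads were 8.18 RPM in EmxKO (95% Poisson interval, 7.58 to 8.82) and 7.24 in the library labelled WT (6.68 to 7.84), and these intervals overlap. Overlap does not show that the skipping reads were equal, and their difference was not tested. Mean inclusion reads were 1.72 RPM in EmxKO and 15.7 in the library labelled WT. At E18 skipping reads of NesKO, 5.31 RPM, stood against inclusion reads of 8.83 RPM in WT.

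**Figure D1:**
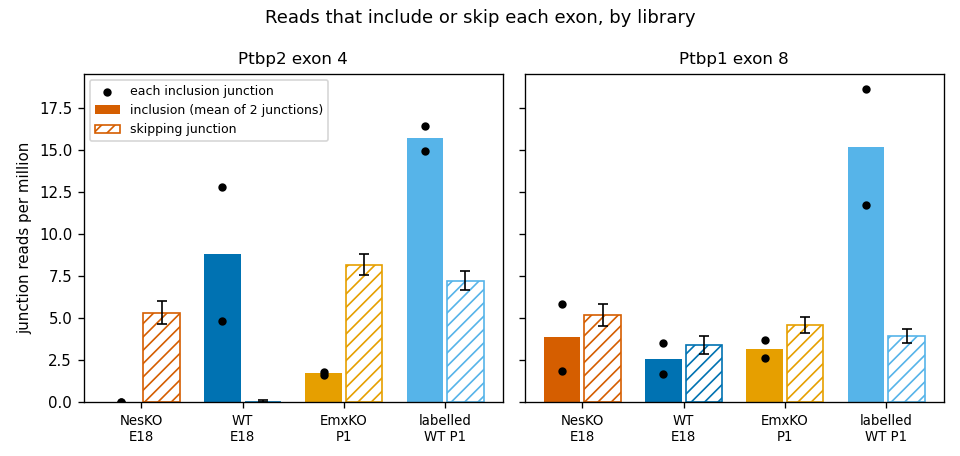
Junction reads (RPM) that include (filled bars, mean of the 2 inclusion junctions, each shown as a point) or skip (hatched bars, with 95% Poisson intervals) exon 4 of *Ptbp2* and exon 8 of *Ptbp1*, by library. In the P1 pair the skipping bars of both exons lie close together, 8.18 and 7.24 for *Ptbp2* and 4.60 and 3.93 for *Ptbp1*, while the inclusion bars differ.

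The trios on either side of exon 4 listed reads on its junctions in NesKO that its own trio did not. The exon 3 trio had 19 reads from exon 3 to exon 4 and the exon 5 trio 18 reads from exon 4 to exon 5, where the E18 WT library had 347 and 641. Neither of these trios offers the junction of exon 3 with exon 5. Exons 3 and 4 end in the same 3 bases, while the starts of exons 4 and 5 share 0 bases. How these reads were mapped was not tested. Exon 5 (144 nt, in frame) is the next exon, and its skipping reads run from exon 4 to exon 6. It had 8, 0, 28 and 18 skipping reads in NesKO, E18 WT, EmxKO and labelled WT, and a PSI of 97.7, 99.9, 96.1 and 99.1. These differences of -2.2 and -3.0 points passed Fisher's exact test (adjusted p = 0.0478 at E18 and 0.0011 at P1) but not the 10 points. The 8 reads in NesKO start at an exon that its own trio listed at 0, and how they were mapped was not tested.

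Exon 8 of *Ptbp1* (78 nt, coding, mm9 chr10:79322862-79322939, plus strand) was the other family exon called at P1. The NesKO library had 284 reads on its upstream junction, 91 on its downstream junction and 250 skipping reads. The E18 WT library had 178, 83 and 170. The EmxKO library had 307, 220 and 382. The P1 library labelled WT had 1555, 979 and 328. From junction reads the PSI was 42.9% in NesKO (95% Wilson interval, 38.3 to 47.5%), 43.4% in E18 WT (37.9 to 49.1%), 40.8% in EmxKO (37.1 to 44.7%) and 79.4% in the P1 library labelled WT (77.4 to 81.3%). The first 3 intervals overlap one another, and the library labelled WT at P1 stands apart from them.

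The corrected PSI gave the same picture, with 47.9, 47.3, 43.3 and 80.4 in that order. EmxKO was 37.1 points below the library labelled WT (Fisher's exact test, adjusted p = 7.51e-64). NesKO was 0.6 points above WT at E18 (Fisher's exact test, adjusted p = 1). The responses in the 2 pairs of libraries differed by a test of its own, with a difference of -1.70 between the log odds ratios of inclusion at P1 and at E18 (Wald chi-square test on 4 libraries, adjusted over 119773 exons, p = 2.93e-16). Its skipping reads were 4.60 RPM in EmxKO (4.15 to 5.08) and 3.93 in the library labelled WT (3.52 to 4.38), which overlap. Mean inclusion reads were 3.17 RPM in EmxKO and 15.2 in the library labelled WT. The exon has a GC content of 65.4%, the highest of the exons of its transcript.

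**Figure D2:**
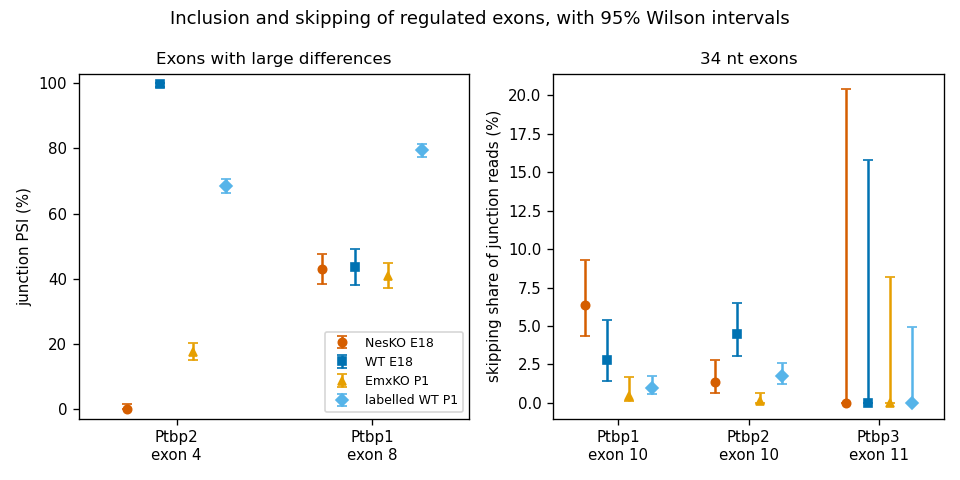
Left, PSI from junction reads of *Ptbp2* exon 4 and *Ptbp1* exon 8. Right, skipping share of the 34 nt exons. Points are single libraries and bars are 95% Wilson intervals, which cover counting error only. For *Ptbp1* exon 8 the P1 library labelled WT lies at 79.4% and the other 3 between 40.8 and 43.4%.

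The 34 nt exons were included in most transcripts of every library, and in *Ptbp2* skipping made up a smaller share of reads in each knockout library than in its partner. For exon 10 of *Ptbp2* (mm9 chr3:119427530-119427563), the exon whose omission PTBP1 promotes, the skipping reads were 7 in NesKO, 25 in E18 WT, 1 in EmxKO and 26 in the library labelled WT. These were 1.35% (0.657 to 2.77%), 4.46% (3.04 to 6.50%), 0.117% (0.0206 to 0.657%) and 1.77% (1.21 to 2.59%) of the junction reads. Both knockout libraries lay below their partners, with intervals that do not overlap. By Fisher's exact test the adjusted p was 0.022 at P1 and 0.794 at E18, where the unadjusted p was 0.0034. The exon's own junctions were uneven, with 72 to 287 reads upstream and 949 to 2594 downstream. Read from the smaller one alone, its PSI was 91.1% in NesKO, 81.1% in E18 WT, 99.5% in EmxKO and 91.7% in the library labelled WT, so that the size of the skipping share depends on the junction read while its order within each pair does not. The E18 difference was then 10.1 points, past the 10 points of a call, and the P1 difference was 7.8 points.

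For exon 10 of *Ptbp1* (mm9 chr10:79324759-79324792), the self-regulated exon, the skipping reads were 24 in NesKO, 8 in E18 WT, 2 in EmxKO and 11 in the library labelled WT. As shares these were 6.37% (4.32 to 9.31%), 2.79% (1.42 to 5.40%), 0.459% (0.126 to 1.66%) and 0.990% (0.553 to 1.76%). The intervals overlap within each pair, and neither difference passed adjustment (Fisher's exact test, adjusted p = 1 at both stages, with an unadjusted p of 0.0429 at E18). The test of a difference between the pairs did not pass for the 34 nt exons of either gene (Wald chi-square test, adjusted p = 1). Both exons were near full inclusion, where this test found few changed exons in simulated reads, so it cannot decide the question.

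For exon 11 of *Ptbp3* (mm9 chr4:59498211-59498244), the counterpart, no library had a skipping read. With 6 and 24, 3 and 38, 14 and 72, and 19 and 130 inclusion reads in the 4 libraries, 0 skipping reads allow shares of up to 20%, 14.6%, 6.98% and 4.03%. Skipping at the level of the other 2 genes was therefore not detectable at this depth in any of the 4 libraries.

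The remaining call was exon 3 of *Ptbp1* (73 nt, mm9 chr10:79321497-79321569), at 99.9 in NesKO and 78 in E18 WT. Neither library had a skipping read in this trio, with 47 and 342 inclusion reads in NesKO and 40 and 244 in WT. Its PSI from junction reads was 100% in both. At P1 both libraries stood at 99.9. The same exon in a trio with a shorter downstream exon of 200 nt had a PSI between 5.8 and 22.2 in the 4 libraries, so its value depends on the trio that is read. Exon 9 of *Ptbp1* (146 nt) showed the same: next to exon 8 it stood at 99.9 in every library, and next to exon 7 it stood at 68.5 in NesKO, 71.0 in E18 WT and 99.9 at P1, without a skipping read.

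The 5′ exon 2 of *Ptbp3*, also of 34 nt but outside the conserved block, had under 20 junction reads in each E18 library and was not called at P1, where its PSI was 34.6 in EmxKO and 28.8 in the library labelled WT (Fisher's exact test, adjusted p = 1). Its skipping reads were 1, 2, 21 and 42, and its inclusion junctions had 1 and 2, 0 and 1, 1 and 13, and 5 and 16 reads. At P1 the junction PSI was 25% in EmxKO and 20% in the library labelled WT.

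Between the E18 WT library and the P1 library labelled WT, 3 of 38 family exons were called, 2 higher and 1 lower at P1, against 3.18% of all exons. Exon 8 of *Ptbp1* was 33.1 points higher at P1 (Fisher's exact test, adjusted p = 3.30e-31). Exon 4 of *Ptbp2* was 32.4 points lower in the P1 library labelled WT (Fisher's exact test, adjusted p = 4.24e-59), which is the departure from its label described above. Exon 3 of *Ptbp1* was 21.9 points higher without a skipping read in either library in the trio used. No exon of *Ptbp3* was called. All 3 are comparisons with the library that went against its label. For exon 3 of *Ptbp1*, though, the value apart was that of E18 WT, at 78, and every other library stood at 99.9.

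The level of each gene was read from its junctions, as the median over junctions between constitutive-labelled exons, a measure that does not grow with the length of the transcript. Junctions of one gene were uneven within a library, from 0.797 to 13.7 RPM along *Ptbp1* in E18 WT, so that levels of different genes can be compared only roughly. *Ptbp1* had a median of 7.32 RPM per junction in NesKO, 5.12 in E18 WT, 8.06 in EmxKO and 18.9 in the library labelled WT. The P1 library labelled WT was the high one, and the other 3 lay between 5.12 and 8.06. *Ptbp2* had 5.31, 6.91, 13.1 and 24.5, and *Ptbp3* had 0.320, 0.508, 0.427 and 0.803. *Ptbp3* was the lowest of the 3 genes in every library, and again the library labelled WT was the highest for each gene.

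In NesKO *Ptbp1* was 1.43-fold higher than in WT by this median, and 12 of its 13 junctions were above 1, with ratios from 0.924 to 1.62. *Ptbp2* was 1.30-fold lower by the median of all its junctions, which include those of the deleted exon. Without the junctions of exon 4 the medians were 7.34 RPM in NesKO and 6.60 in WT, and 7 of the 10 junctions with at least 10 reads in both libraries were higher in NesKO, with ratios from 0.666 to 1.44. By these junctions *Ptbp2* RNA was 1.11-fold higher in NesKO, while nearly none of it held exon 4. *Ptbp3* was 1.59-fold lower in NesKO, and all 11 of its junctions with that depth were lower, with 229 junction reads against 359.

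In EmxKO all 3 genes were lower than in the library labelled WT, although by summed junction reads *Ptbp3* lay 0.09 above the median log2 ratio of genes of like GC content. *Ptbp1* was 2.35-fold lower, and each of its 13 junctions was lower. Their ratios ran from 0.198, from exon 7 into exon 8, and 0.245, from exon 8 into exon 9, to 0.898 at the first junction. *Ptbp2* was 1.88-fold lower and *Ptbp3* was also 1.88-fold lower by the median. Without the junctions of exon 4 every one of 11 *Ptbp2* junctions was lower, within a narrow range of 0.497 to 0.623.

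**Figure D3:**
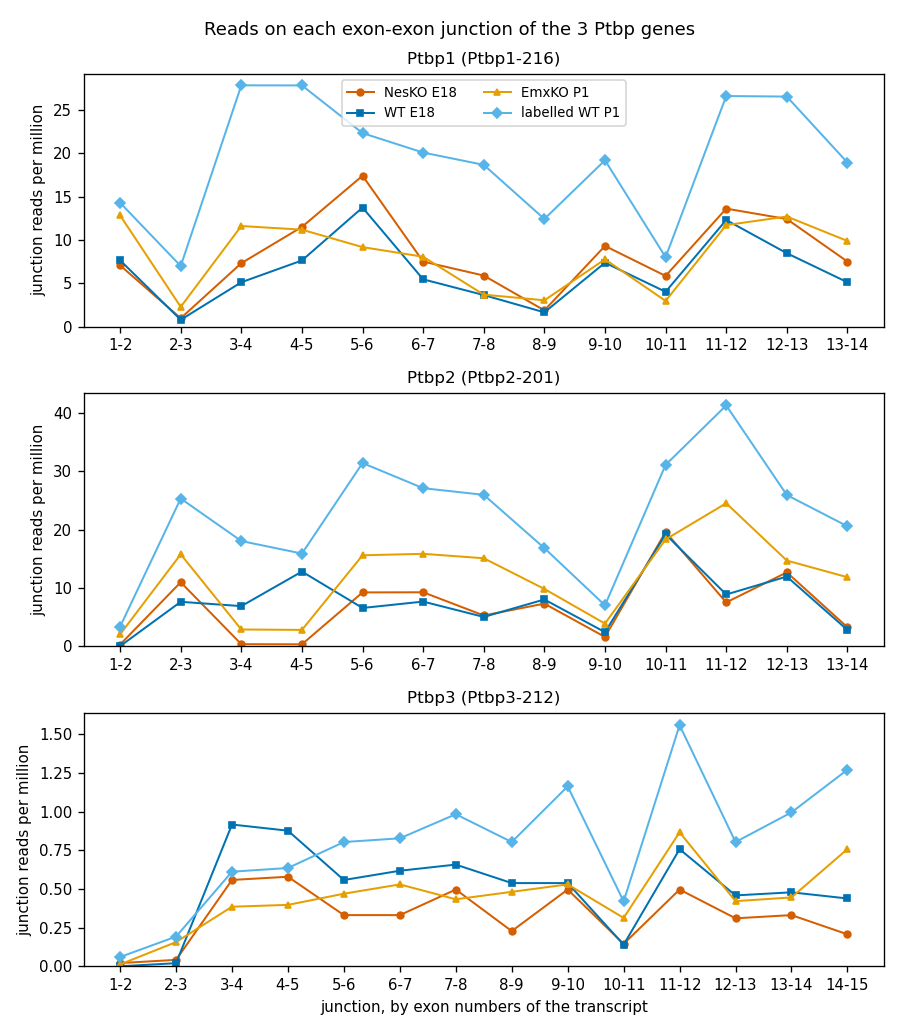
RPM on each junction along the transcripts of *Ptbp1*, *Ptbp2* and *Ptbp3* in the 4 libraries. In the library labelled WT at P1 *Ptbp1* lies above the other 3 libraries at every junction, and the *Ptbp2* junctions 3-4 and 4-5 of NesKO lie at 0.393 and 0.372.

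GC content moved with the level ratios at P1. Over 9965 genes with at least 200 junction reads in each library and a protein-coding transcript, the rank correlation of the log2 ratio with the GC content of the transcript was 0.73 at P1 and 0.47 at E18, a description across genes that share the same libraries. The rank correlation with transcript length was -0.43 at E18, nearly as strong as that with GC content there, and -0.19 at P1. At P1 the median log2 ratio rose from -0.94 in the lowest GC decile to 0.28 in the highest, and 7.27% of genes were more than 1 log2 unit lower in EmxKO, against 0.341% in NesKO. Fewer cells of a type and less RNA per cell cannot be told apart in these libraries either.

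Set against genes of like GC content, the 3 genes parted. *Ptbp1* has a GC content of 53.7%, and its log2 ratio of summed junction reads of -1.18 at P1 differed by -1.36 from the median of its decile (0.17), with 0.1% of the 996 genes of that decile lower. *Ptbp2*, with 43.1% GC, had -0.88 where the median of its decile was -0.57, and 24.5% of genes were lower. *Ptbp3*, with 38.9% GC, had -0.86 where the median of its decile was -0.94, and 55.97% were lower. At E18 *Ptbp1* had 0.40 against a decile median of 0.03, and 92.8% of its decile were lower. *Ptbp2* had -0.10 against -0.24 and *Ptbp3* -0.60 against -0.29. The part of GC content in these ratios was not tested beyond these values.

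**Figure D4:**
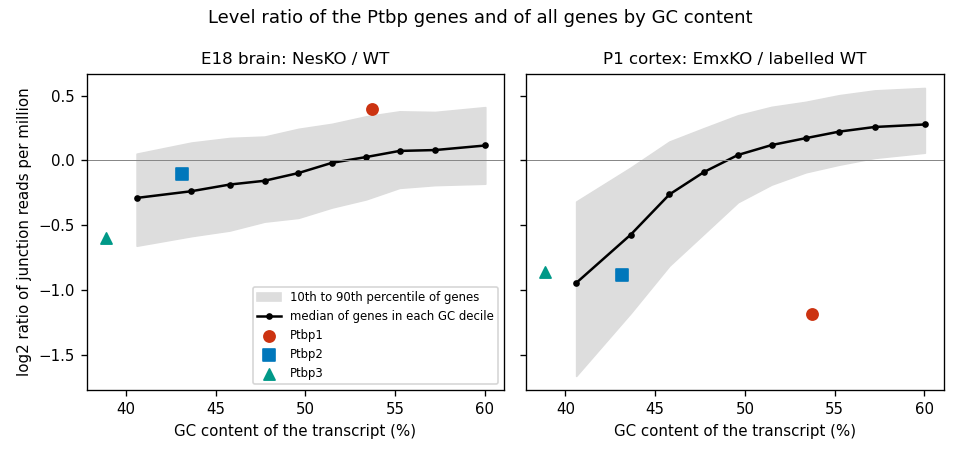
Log2 ratio of summed junction reads (RPM), knockout over its partner, against the GC content of the transcript at E18 (left) and P1 (right). The line is the median and the band the 10th to 90th percentile of genes in each GC decile. At P1 *Ptbp1*, *Ptbp2* and *Ptbp3* lie at -1.36, -0.31 and 0.09 from the line.

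**Figure D5:**
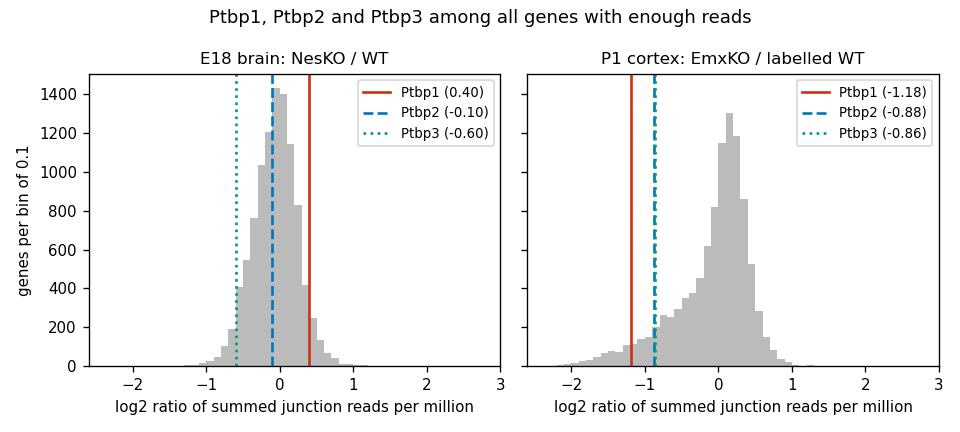
Number of genes per bin of 0.1 of the log2 ratio, over 10117 genes with at least 200 junction reads in each library, with *Ptbp1*, *Ptbp2* and *Ptbp3* as lines. At P1 the distribution has a long lower tail, with an SD of 0.52 against 0.31 at E18, and 4.81% of genes lie below *Ptbp1*.

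The balance of the family also differed among libraries. Without the junctions of exon 4, *Ptbp2* had 1.00 times the median junction reads of *Ptbp1* in NesKO, 1.29 times in E18 WT, 1.83 times in EmxKO and 1.34 times in the library labelled WT. These ratios carry the unevenness of the junctions of both genes. *Ptbp1* had 22.8, 10.1, 18.9 and 23.5 times the reads of *Ptbp3*.

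Marker genes are given beside these levels because *Ptbp1* is a gene of progenitors and glia and *Ptbp2* one of neurons. In the order NesKO, E18 WT, EmxKO and labelled WT, the summed RPM of 6 neuronal genes were 1848, 2183, 2980 and 3166, with 5 of 6 lower in each knockout. Those of 5 measured progenitor genes were 530.0, 467.2, 263.6 and 302.7, with 2 of 5 higher in each knockout. Those of 5 astrocyte and radial glia genes were 857.9, 942.8, 427.3 and 533.2, with 1 of 5 higher in NesKO and 3 of 5 in EmxKO, although the sum was lower in EmxKO. All 5 measured microglial genes were higher in both knockouts, with sums of 112.2, 73.8, 66.6 and 42.1. All 5 oligodendrocyte lineage genes were lower in NesKO and higher in EmxKO, with sums of 73.4, 103.3, 106.3 and 85.8. Endothelial sums were 140.6, 165.1, 93.4 and 83.1, with 1 of 4 genes higher in NesKO and 3 of 4 in EmxKO, and red blood cell sums were 4143, 3105, 631.8 and 620.4, with 3 of 3 higher in NesKO and 1 of 3 in EmxKO. The cortical genes *Tbr1* and *Emx1* stood at 92.8 and 17.3 RPM in EmxKO and at 96.4 and 20.1 in the library labelled WT, and the hindbrain gene *Hoxb3* had 0 reads in both. At E18 *Tbr1* stood at 26.6 RPM in NesKO and 31.9 in WT, *Emx1* at 3.58 and 2.61, and *Hoxb3* at 0.951 and 2.69. The part of cell makeup in the levels of the 3 genes was not tested.

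Partner proteins of PTB, among them *Raver1*, *Matr3* and *Hnrnpl*, had 99 exons tested at each stage. At E18 3 exons were called, against 1.81% of all exons, and all were higher in NesKO: 2 overlapping exons of *Hnrnpl*, of 464 nt (49.2 against 34.5) and 281 nt (67.1 against 44.3), and an exon of 470 nt of *Raver1*, a locus that overlaps *Gm38431* (69.5 against 52.5). None of these had a skipping read in either library, and their PSI from junction reads was 100% throughout. At P1 0 of 99 were called, by 10 points or by Fisher's exact test with that cutoff, against 1.17% of all exons by 10 points. In level, 8 of the 9 partner genes were lower in NesKO and 6 of 9 in EmxKO, with median log2 ratios of -0.11 and -0.16. The medians over 10117 genes were -0.05 and 0.05, so at E18 most of all genes were lower in NesKO too. The lowest partner gene was *Matr3*, a nuclear matrix protein that binds PTB. It stood at 159.2 RPM in EmxKO and 627.2 in the library labelled WT, a log2 ratio of -1.98. The partner genes were not set against genes of like GC content, with which the P1 ratios moved.

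Of 7 textbook target genes, 127 exons were tested at E18, with 3 called higher and 2 lower, against 1.81% of all exons called, and 129 at P1, with 2 called higher and 2 lower, against 1.17%. The median difference was 0 at both stages, as over all exons. A 66 nt exon of *Actn1*, alpha-actinin, stood at 88.4 in NesKO against 52.8 in WT at E18 and at 79.1 in EmxKO against 53.8 in the library labelled WT at P1. From junction reads its PSI was 92.0% against 88.2% at E18 and 85.7% against 64.8% at P1. A 167 nt exon of *Pkm*, pyruvate kinase, stood at 72.1 against 59.7 at E18 and at 65.7 against 80.8 at P1, with a PSI from junction reads of 99.4% to 99.6% throughout. A 79 nt exon of *Tpm1* was lower at E18 by PSI (60.9 against 74.1) and by junction reads (54.7% against 70.8%). Exons of *Cacna1c* were lower by PSI (84 nt, 70.1 against 86.7 at E18, and 60 nt, 44.3 against 55.7 at P1). By junction reads both were higher, at 94.9% against 87.7% and 95.7% against 91.5%, with between 1 and 5 skipping reads per library. None of these *Actn1*, *Pkm*, *Tpm1* and *Cacna1c* exons passed Fisher's exact test after adjustment.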

How the data were processed

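The authors aligned 100 bp paired-end reads and ran SpliceTrap, and they deposited 1 table per library. The submitters' processing notes name CASAVA, TopHat, Cufflinks and mm9, without versions. The deposited inclusion ratio is a fraction, before and after SpliceTrap's correction, and 100 times the corrected one is PSI. The deposited junction reads are whole-number counts without normalization, and the authors' coverage columns are a signal per exon, from which reads on the exon were recovered. Trios overlap, so a junction's reads were taken as the largest count any trio lists, and levels are reads per 1000000 (RPM) of their sum.

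Junction PSI divides the average of both inclusion junctions by that average plus the skipping reads. Wilson and Poisson intervals (95%) cover counting error only. Fisher's exact test used the rounded mean, and the Wald chi-square test of stages added 0.5 to each count. Benjamini-Hochberg adjustment ran over all cassette and constitutive middle exons with at least 20 reads. The calculations were tested on simulated reads with known answers, where the Wald test found few changed exons that were otherwise near full inclusion. Exons named are the deleted exon, the textbook self- and cross-regulated exons, family exons past 10 points in a knockout comparison, and list exons past 10 points. Members, lists and tests were chosen with earlier results of these data known. Of 228333 trios, 209930 had a gene name. The alternatives were the uncorrected ratio, junction PSI, other read minimums, trios and cutoffs, other scalings and, chosen after seeing the data, the smaller inclusion junction, *Ptbp2* without exon 4 junctions, and deciles of GC content and transcript length. Python 3.11.15, numpy 2.4.6, pandas 2.3.3 and scipy 1.17.1 were used. Results for a few genes of the marker and target lists are not reported here.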

Additional observations from a re-analysis of the deposited data

Results flagged for a closer look

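For exon 8 of *Ptbp1* the log odds ratio of inclusion, knockout over partner, differed by -1.7 between the P1 and E18 pairs (Wald chi-square test on reads, adjusted p = 2.9e-16). This compares 4 single libraries, of which NesKO, E18 WT and EmxKO lay between 40.8 and 43.4% and only the library whose exon 4 went against its label lay apart, at 79.4%. Stage, tissue, Cre line and library type cannot be told apart. Exon 4 of *Ptbp2*, the deleted exon, also differed between the pairs (Wald chi-square test, adjusted p = 2.3e-05), with 0 inclusion reads in NesKO and inclusion reads in EmxKO. The fitted difference of 9.6 in the same measure depends on the 0.5 added to each count and has no fixed size against a count of 0. The level of *Ptbp1* was higher in NesKO than in WT and lower in EmxKO than in the library labelled WT, with a log2 ratio of -1.23 at P1. The difference between these ratios was not tested.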

How the results depend on the processing

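Calls of family exons at E18 depended most on how PSI was read. Against the 2 exons of the report, junction reads alone, the trio with most skipping reads, or requiring an adjusted p under 0.05 each left 1, *Ptbp2* exon 4, while a minimum of 1 junction read gave 4 and the smaller inclusion junction 5, exon 10 of *Ptbp2* among them. Exon 3 of *Ptbp1*, 21.9 points higher in NesKO, was 1.0 points lower (-1) in the trio with most skipping reads and 0 points apart by junction reads. At P1 the family count was 2 under each alternative, and exon 4 of *Ptbp2* and exon 8 of *Ptbp1* kept their direction and stayed past 10 points. Between the WT-labelled libraries a minimum of 1 read gave 5 exons in place of 3, and junction reads or an adjusted p gave 2, without exon 3 of *Ptbp1*. The smaller inclusion junction gave 3, with exon 10 of *Ptbp2* in place of exon 3 of *Ptbp1*. The stage test called the same number of exons with the smaller inclusion junction.

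Over all exons the calls at E18 were 2278, and 1323 by junction reads, 4255 at a minimum of 1 read, 165 with an adjusted p under 0.05 and 751 at 20 points. At P1 they were 1469, and 932 at a minimum of 50 reads, 3150 at 1 read, 224 with an adjusted p, 351 at 20 points and 2506 with the smaller inclusion junction. Between the WT-labelled libraries they were 3909, and 2255 by junction reads, 6214 at 1 read, 820 with an adjusted p and 1893 at 20 points.

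The log2 ratio of *Ptbp1* at E18 was 0.52, and 0.58 with median-ratio scaling and 0.40 by the sum of junctions. At P1 it was -1.23, and -1.39 per mapped read, -1.16 with median-ratio scaling, -1.18 by the sum, -1.40 against its GC decile and -1.30 against its length decile. For *Ptbp2* at E18 it was -0.38, and -0.32 with median-ratio scaling, -0.10 by the sum, -0.14 against its GC decile, -0.28 against its length decile and 0.15 without the junctions of exon 4, which were what lowered it. At P1 it was -0.91, and -1.07 per mapped read, -0.84 with median-ratio scaling, -0.34 against its GC decile and -0.78 without exon 4. For *Ptbp3* at E18 it was -0.66, and -0.38 against its GC decile. At P1 it was -0.91, and -1.08 per mapped read and 0.032 against its GC decile, so its direction at P1 was not stable. Values against a decile subtract the decile's median ratio of summed reads from the gene's ratio of the median junction, so they differ slightly from those of the report, which use summed reads for both.

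For the partner list junction reads gave 0 exons in place of 3 at E18. For the target list at E18 they gave 1 higher and 1 lower, and at P1 0 lower, and a minimum of 50 reads gave 1 lower at each stage. Unless stated, the cause was not tested. No paired analysis was possible because each group has 1 library. Depth limits *Ptbp3* most, with 229 to 989 junction reads in all.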

Other observations

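An alternative 5′ splice site in *Ptbp3* that differs by 9 nt was listed inside the gene but could not be named by the matching rule. Its PSI was 84.2 in NesKO, 90.5 in E18 WT, 79.8 in EmxKO and 75.8 in the library labelled WT, with 5, 5, 6 and 12 reads on its skipping junction. An alternative 3′ splice site in *Ptbp1* of 120 nt, at the start of exon 4, stood between 99.7 and 99.9 in the 4 libraries.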
